A study of Homo sapiens with 2 samples.

Results

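The phagosome genes described here were those named as having peaks of ALKBH5-bound RNA in HL-60 cells. HL-60 is an established line from a human promyelocytic leukaemia and serves as a model of cells on the way to neutrophils. They were chosen by their presence in the Phagosome row of the authors' KEGG table, that is, by the authors' own peak assignment. Entries that also stood in the KEGG Endocytosis row (9), symbols beginning with ATP6 (10) and the 5 genes MPO, CD14, CYBB, FCAR and FCGR1A were left out. Of the 81 entries of the row, 57 symbols on 47 distinct gene identifiers remained, out of 5614 symbols on 5237 identifiers in the GO and KEGG tables together.

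ALKBH5 is a demethylase that erases the RNA mark N6-methyladenosine. RNA pulled down with an anti-ALKBH5 antibody (IP) was sequenced beside RNA of the whole lysate (input), with 1 library of each. Both libraries came from HL-60, and the genotype label of both reads ALKBH5, with no further treatment named in the labels. The title of each library contradicts its library name, and the groups follow the library names. Of 6 genes of the myeloid lineage that were looked up, 4 were listed: MPO, PRTN3, CEBPA and CD33. CEBPE and SPI1 were not. Over all protein-coding genes of the reference the listed share was 26.9%. A listing depends on an assigned peak and a deposited term, so it does not test the identity of the cells. The tables name genes and give no level per gene or library, so a gene is described as listed or not listed, the read depth behind it is unknown, and the IP could not be compared with the input gene by gene.

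A phagosome is the membrane vesicle in which a neutrophil or macrophage encloses a particle. Receptors and bridging proteins on the particle trigger uptake, actin and microtubule motors move the vesicle, fusion with endosomes and lysosomes brings in proton pumps and proteases, and the NADPH oxidase releases oxidants into it. Peptides from the enclosed particle can then be loaded on major histocompatibility molecules. Neutrophils are professional phagocytes, and promyelocytes are the stage at which their primary granules form.

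In the authors' deposited table the Phagosome row had 81 entries on 152 background genes, a rich factor of 1.6, a p-value of 0.00873 and a corrected p-value of 0.218, so it did not reach a corrected p of 0.05. The rich factor is the number of entries over the number of background genes, divided by the overall share. The 81 entries were symbols, and some of them shared 1 identifier. Counted by distinct identifier, 70 of the 152 background genes had an entry (46.1%, exact Clopper-Pearson 95% interval 37.9 to 54.3%), which left 82 with none. This share was 36th from the top among the 38 listed pathways, whose shares ran from 44.8 to 72.2% with a median of 53.0%. The highest share was that of DNA replication, with 36 background genes, and the lowest that of Viral carcinogenesis, with 201. Whether the rank follows pathway size was not tested. Because the whole row was deposited, a gene that the authors' annotation places in this pathway and that had an assigned peak should stand in it. The intervals cover counting error only.

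The members were set against a list of 156 phagosome genes written from general knowledge and sorted into 7 roles. The 37 genes that the rule leaves out were removed from it, and 119 remained. Apart from the ATP6 genes, the removed genes came from the Phagosome row and were therefore all listed. Unlisted genes stayed, which lowers the shares of the roles concerned. With the removed genes kept, 46.2% of the list was listed. Of these 119 genes 48 were listed in any table (40.3%, 95% interval 31.4 to 49.7%), and 47 of the 48 were members. Among all 20056 protein-coding genes of the reference 26.9% were listed. A gene with a peak is missed there if no deposited term and no family names it, so 26.9% is not the share of genes with peaks. Listing is what chose the members, so the higher share is a description and nothing is read from it. The remaining listed gene was CR1, a complement receptor, which stood in the KEGG row Legionellosis and the GO term neutrophil degranulation but not in the Phagosome row.

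**Figure D1:**
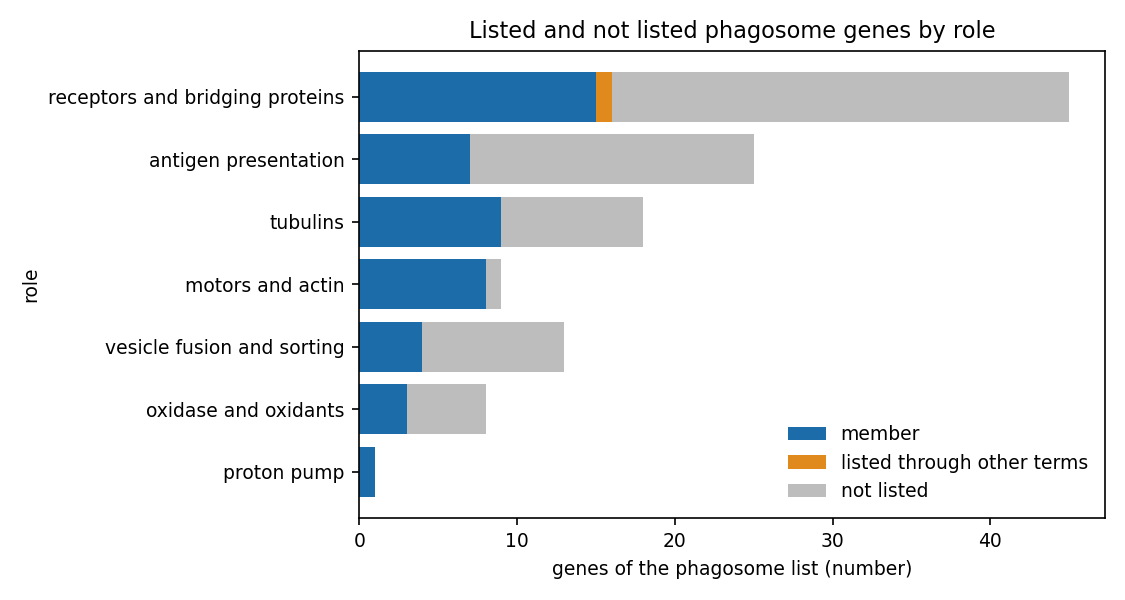
Number of genes (horizontal axis) of the 119-gene phagosome list in each role, split into members, genes listed through other terms, and genes not listed. Motors and actin were listed in 8 of 9 cases, and vesicle fusion and sorting in 4 of 13.

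Receptors and bridging proteins formed the largest role, with 15 members and 16 listed genes of 45 (35.6%, 95% interval 21.9 to 51.2%). Integrins were listed in 6 of 8 cases. ITGAM and ITGB2, the chains of complement receptor 3, by which neutrophils take up complement-coated particles, were both listed. ITGAM lies on chromosome 16 from 31259975 to 31332877 and ITGB2 on chromosome 21 from 44885953 to 44928815 (GRCh38.p14). ITGA2 and ITGA5, which pair with ITGB1 to bind collagen and fibronectin, and ITGB5, a chain of a vitronectin receptor, were listed as well. ITGAV and ITGB3 were not.

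The soluble and bridging members were C3, the central complement protein that coats particles, C1R, a protease of the classical complement pathway, and the thrombospondins THBS1, THBS3 and THBS4. Of the genes THBS1 to THBS4, 3 of 4 were listed, without THBS2, and COMP was not listed either. TLR2, a sensor of bacterial lipoproteins on chromosome 4 from 153684280 to 153710637, was the listed one of 3 toll-like receptors, and TLR4 and TLR6 were not. MRC2, an endocytic receptor for collagen, was the only listed gene among 12 lectin-type receptors and collectins (8.33%, 95% interval 0.211 to 38.5%). SCARB1, a receptor for high-density lipoprotein, and LAMP1, a glycoprotein of the lysosomal membrane, complete the role. M6PR, LAMP2, C1RL, CD36, MARCO, MSR1 and OLR1 were not listed. None of the 5 low-affinity Fc gamma receptor genes (FCGR2A, FCGR2B, FCGR2C, FCGR3A, FCGR3B) was listed (95% interval up to 52.2%), whereas FCGR1B was a member.

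Antigen presentation held 7 members of 25 genes (28.0%, 95% interval 12.1 to 49.4%). Listed genes of this role that the rule leaves out as Endocytosis entries are in neither number, and with those entries kept the role had 13 members. TAP1 and TAP2, the subunits of the transporter that carries peptides to class I molecules, lie on chromosome 6 from 32845209 to 32853704 and from 32821831 to 32838739, with 6.47 kb between them. CALR and CANX, chaperones that assist folding of class I molecules, were listed beside them. So were SEC61A1, the channel subunit of the endoplasmic reticulum translocon, and the proteases CTSS and CTSL, of which CTSS is known for trimming the invariant chain of class II molecules. The other 3 SEC61 genes of the list were not.

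None of the 14 class II genes, from HLA-DMA to HLA-DRB5, was listed (95% interval up to 23.2%). Class II molecules present peptides from enclosed particles to helper T cells. These genes are polymorphic and similar in sequence, so the assignment of reads to single genes among them is uncertain.

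Tubulins, the subunits of the microtubules along which phagosomes travel, contributed 9 members of 18 genes (50.0%, 95% interval 26.0 to 74.0%). Alpha tubulins were listed in 5 of 9 cases (TUBA1A, TUBA1B, TUBA1C, TUBA4A, TUBA8) and beta tubulins in 4 of 9 (TUBB, TUBB2A, TUBB4B, TUBB6). TUBA1A, TUBA1B and TUBA1C lie side by side on chromosome 12 from 49127782 to 49274600, a stretch of 147 kb. TUBB2A lies on chromosome 6 from 3153666 to 3157544. Its close copy TUBB2B was not listed, nor were TUBB3 and TUBB4A, which are known mainly from neurons, or TUBB1, known from platelets. Tubulin genes are near-identical in their coding parts, so reads of one can be assigned to another, and which copy carried a peak is uncertain.

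Motors and actin had the highest share of the roles with more than 1 gene, with 8 listed of 9 (88.9%, 95% interval 51.8 to 99.7%), all of them members. DYNC1H1, the heavy chain of cytoplasmic dynein, which pulls vesicles towards the cell centre, lies on chromosome 14 from 101964573 to 102056443. The intermediate chain gene DYNC1I2 and the light intermediate chain genes DYNC1LI1 and DYNC1LI2 were listed with it. DYNC2H1, the heavy chain of the dynein that works in cilia, lies on chromosome 11 from 103109426 to 103479863. DYNC1I1, known mainly from neurons, was the unlisted gene. CORO1A, an actin-binding protein of leukocytes that coats young phagosomes, and the actins ACTB and ACTG1 complete the role.

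Vesicle fusion and sorting had 4 members of 13 genes (30.8%, 95% interval 9.09 to 61.4%). They were the lipid kinases PIK3C3 and PIKFYVE, which act one after the other on the phosphoinositides of endosomes and phagosomes, the late endosomal GTPase RAB7B, and SEC22B, a SNARE protein of the endoplasmic reticulum. RAB5A, RAB5B, RAB5C and EEA1, which mark early endosomes and phagosomes, were not listed (0 of 4, 95% interval up to 60.2%). Of 5 SNARE genes SEC22B alone was listed, and STX7, STX12, STX18 and VAMP3 were not. RAB7A and HGS stood in the Phagosome row and were left out as Endocytosis entries, so they are in neither number of this role. With those entries kept the role had 6 members.

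Among the members of the oxidase role were NCF1 and NCF4, cytosolic subunits of the NADPH oxidase. NCF1 lies on chromosome 7 from 74774011 to 74789315 and NCF4 on chromosome 22 from 36861006 to 36878015. The membrane subunit CYBB stood in the Phagosome row and was left out by name. CYBA, the other membrane subunit, and RAC1, a GTPase that activates the complex, were not listed. NCF1 has near-identical pseudogenes, so reads assigned to it may belong to them. TCIRG1, a subunit of the vacuolar proton pump whose symbol does not begin with ATP6, was the single member of that role.

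The other 10 members were symbols that stood on the identifier of another gene and belong to none of the roles. Clone-type names made up 9 of them and had no match in the reference. AC008079.10 carried the identifier of TUBA8, RP11-161H23.5 that of TUBA1C, RP11-386G11.10 that of TUBA1B and XXbac-BPG252P9.9 that of TUBB4B. CTD-2033D15.1 and CTD-2033D15.3 carried that of THBS1, CTD-3035K23.3 that of MRC2, RP11-1017G21.4 that of DYNC1H1 and XXbac-BPG246D15.9 that of TAP2. FCGR1B, which the reference lists as the transcribed pseudogene FCGR1BP, carried the identifier of FCGR1A, so the identifier of a gene that the rule leaves out by name stayed among the 47. ACTB, though a gene of its own, carried the identifier of ACTG1.

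These 11 symbols, ACTB included, stood on the identifiers of 10 genes, and each had the same KEGG rows and GO terms as the gene whose identifier it carried. Their functional terms therefore describe the identifier and not the named transcript. The members had 1.21 symbols per identifier, against 1.07 over all GO and KEGG symbols. The whole Phagosome row, at 1.16, ranked 4th of the 38 pathways.

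**Figure D2:**
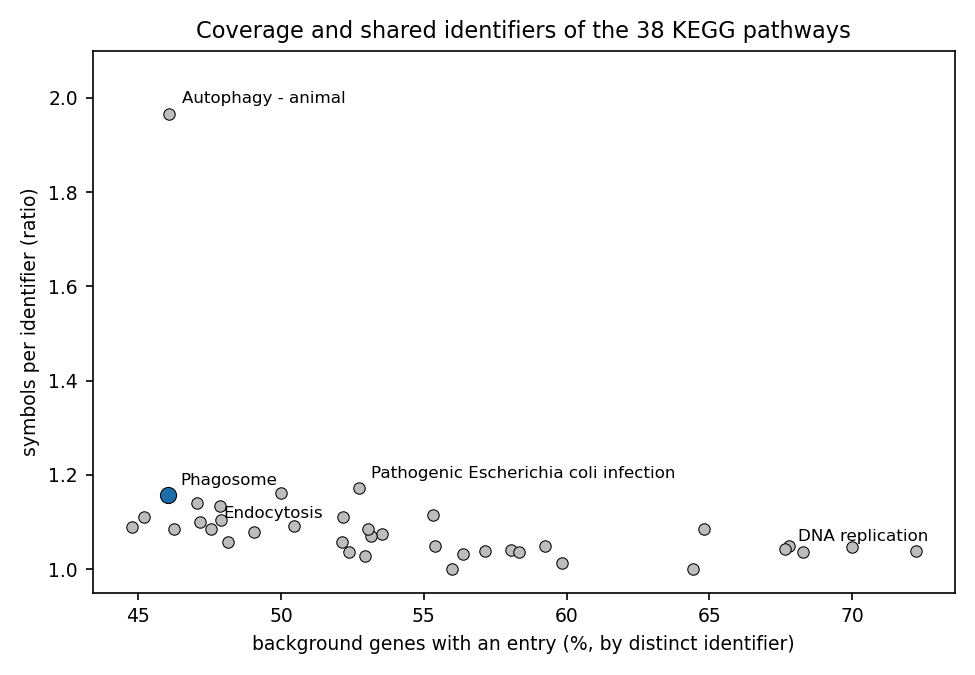
Share of each KEGG pathway's background genes with an entry, by distinct identifier (horizontal axis, %), against symbols per identifier (vertical axis), 1 point per listed pathway. Phagosome lies at 46.1% and 1.16, near the low end of the shares, and Autophagy - animal stands apart at 1.97 symbols per identifier.

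The family table, which pairs genes with families of RNA-binding proteins and was not used by the rule, named 7 of the 57 members (12.3%, 95% interval 5.08 to 23.7%). Over all GO and KEGG symbols 19.8% were in it, which lies inside that interval. Of the 224 neutrophil degranulation symbols that are not members 12.1% were in the table, and of the 126 Endocytosis symbols 18.3%. The 7 members were ITGAM, THBS1, TUBB2A, DYNC1H1, DYNC2H1, SEC22B and TCIRG1.

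All but SEC22B were paired with each of the 4 families of the table, which the table names RRM, CSD, PUF and CCHC ZF,RRM. SEC22B lacked the last of these. Of the 1111 GO and KEGG symbols in the table, 708 were paired with all 4 families. By role, motors and actin had 2 of 8 members in the table, receptors and bridging proteins 2 of 15 and tubulins 1 of 9, while antigen presentation had 0 of 7. None of the 10 symbols on another gene's identifier was in it. None of these 7 genes encodes a protein known chiefly for binding RNA, and the sources used here do not give how the pairs were made.

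**Figure D3:**
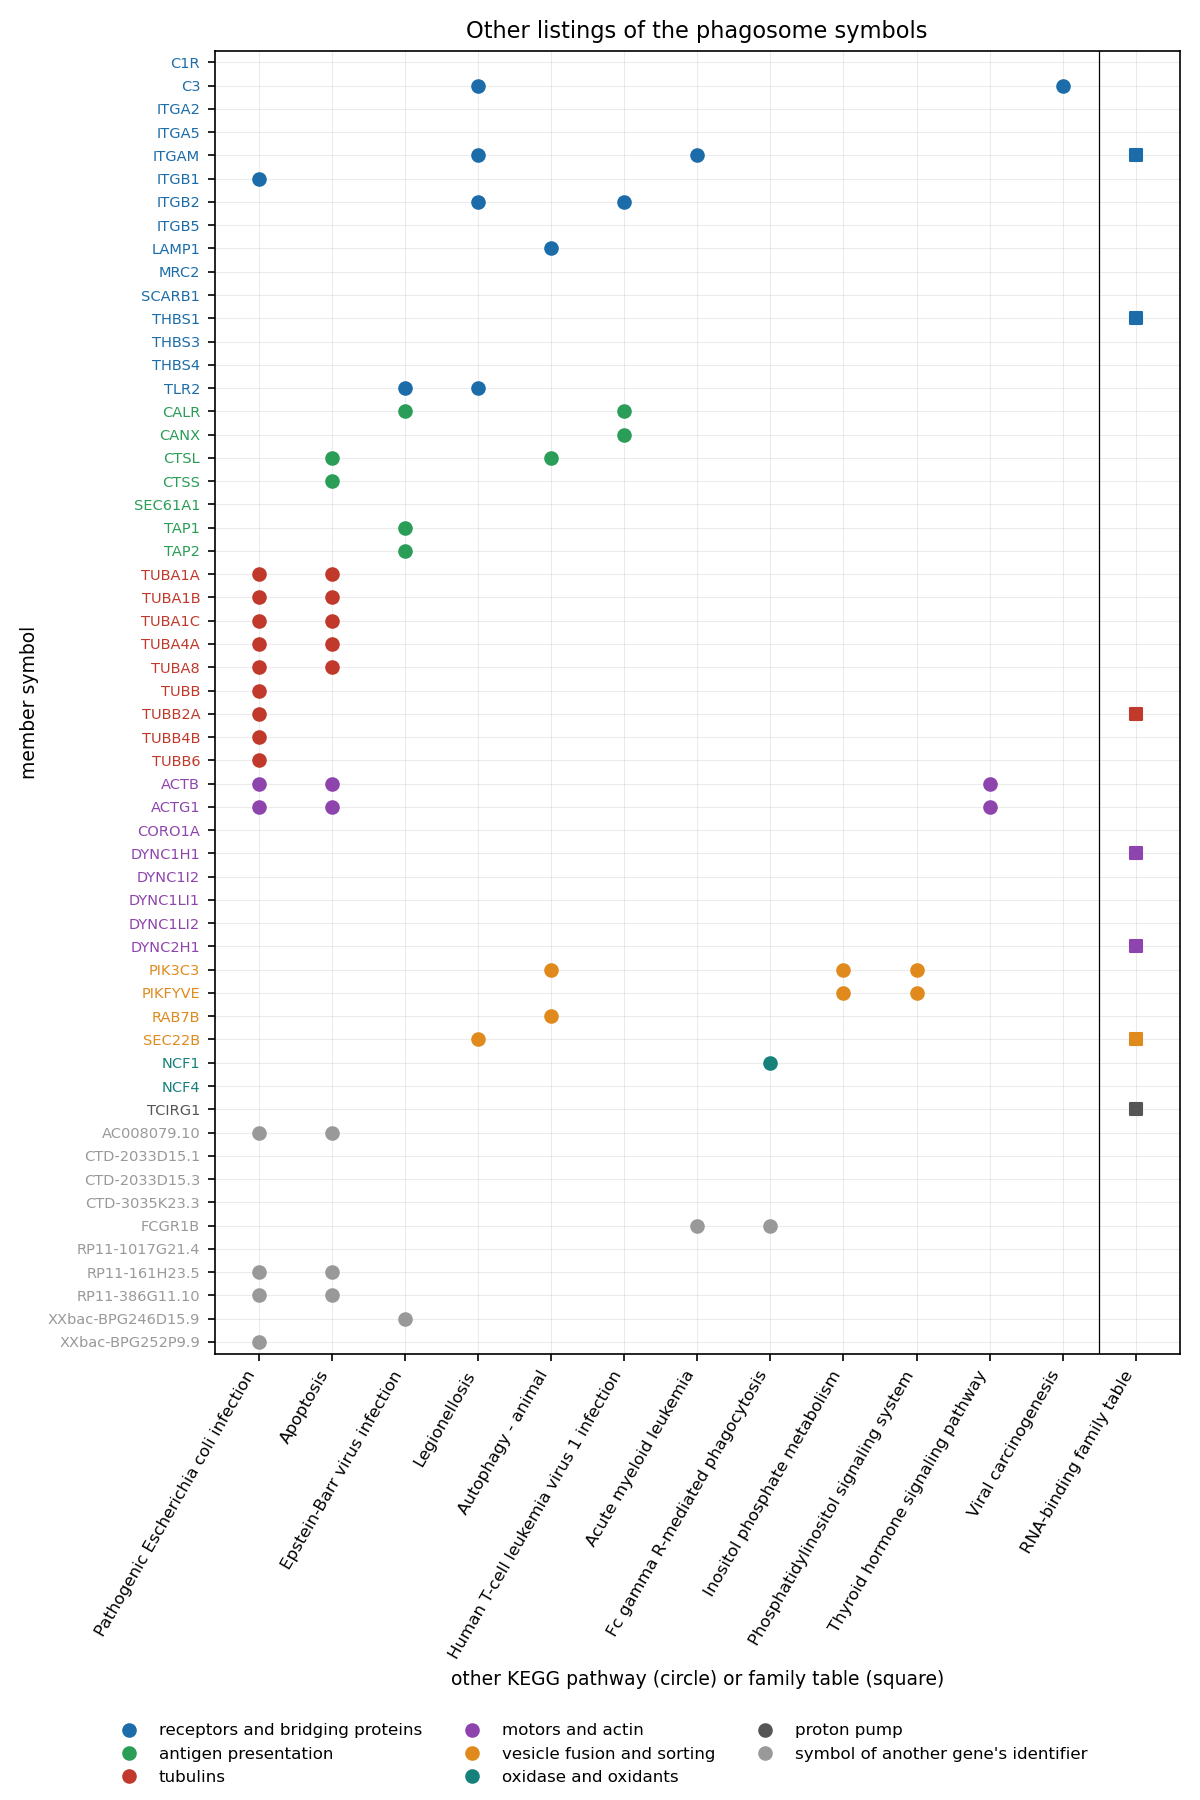
Member symbols (rows, coloured by role) with a circle for every other listed KEGG pathway that names it and a square where the family table names it. The tubulins fill the column Pathogenic Escherichia coli infection, and the 7 squares are spread over 5 roles.

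Beyond the Phagosome row, 34 of the 57 members, counted by symbol, stood in at least 1 of 12 other KEGG rows and 23 in none. Pathogenic Escherichia coli infection held 16 of them, or 11 by identifier: all 9 tubulins, 4 symbols on tubulin identifiers, both actins and ITGB1. Apoptosis held 12, or 8 by identifier, with the 5 alpha tubulins, 3 symbols on their identifiers, both actins, CTSL and CTSS. Legionellosis held C3, ITGAM, ITGB2, TLR2 and SEC22B, and Epstein-Barr virus infection TLR2, CALR, TAP1, TAP2 and the symbol on the TAP2 identifier.

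Autophagy - animal named 4 members, which were LAMP1, CTSL, PIK3C3 and RAB7B. Fc gamma R-mediated phagocytosis, the pathway that starts from antibody-coated particles, held 2 (NCF1 and FCGR1B), with 51 entries on 94 background genes and a corrected p-value of 0.288 in the authors' deposited table. PIK3C3, ACTB and ACTG1 stood in the most KEGG rows, 4 each with Phagosome included.

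Of the 47 identifiers 45 were named in the GO table, in 81 of its 311 listed terms. The identifiers of TUBB and C1R were in none, and C1R was thus listed through the Phagosome row alone. The number of GO terms per identifier ran from 0 to 17 with a median of 5, against a median of 4 for the other identifiers of that table. CALR had 17, DYNC1H1 and DYNC1LI1 16 each, and ITGB1 and PIK3C3 14 each. ITGAM, RAB7B, SCARB1, THBS3, THBS4 and the identifier carried by FCGR1B had 1 each.

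Among processes, neutrophil degranulation held the most members, with 11 identifiers (24.4% of the 45, against 4.10% of the other identifiers). They were C3, CTSS, DYNC1H1, DYNC1LI1, ITGAM, ITGB2, LAMP1, TCIRG1, TLR2, TUBB2A and TUBB4B. That term had 237 entries on 482 background genes and a corrected p-value of 0.412 in the authors' deposited table. TAP-dependent presentation of exogenous antigen on class I held 9 identifiers (20.0% against 0.777%), among them TAP1, TAP2, CALR, SEC22B, NCF1 and NCF4. Presentation of exogenous antigen on class II held 8 (17.8% against 0.777%), with CTSS, CTSL, CANX, PIKFYVE and 4 dynein genes, although no class II gene was listed. Mitotic cell cycle held 9 (20.0% against 1.32%), 8 of them tubulins, or 14 when counted by symbol. Cell division held 7 (15.6% against 3.54%).

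Among compartments, membrane held 18 identifiers (40.0% against 19.1%), cytoplasm 17 (37.8% against 35.0%), cytosol 17 (37.8% against 43.5%), microtubule 13 (28.9% against 2.60%) and nucleus 11 (24.4% against 42.3%). Among functions, ATP binding held 9 (20.0% against 15.0%), RNA binding 5 (11.1% against 15.1%), protein-containing complex binding 4 (8.89% against 3.25%), ubiquitin protein ligase binding 4 (8.89% against 2.68%) and microtubule motor activity 3 (6.67% against 0.680%). The RNA binding entries were CALR, CANX, CORO1A, DYNC1H1 and DYNC1LI1. Both databases annotate the same functions of these genes, so the shares describe what the members are known to do and not how ALKBH5 held their RNA.

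**Figure D4:**
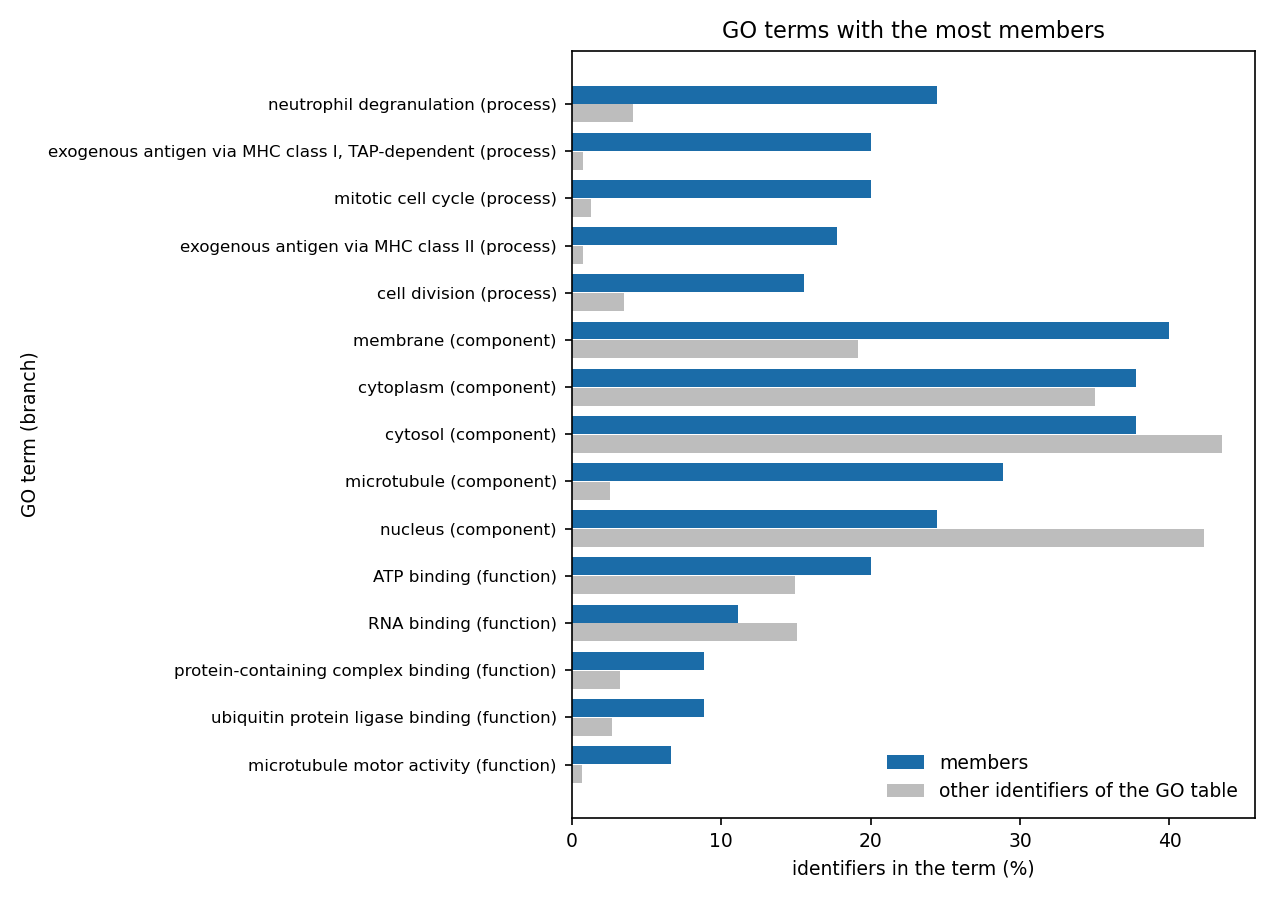
Share of identifiers in each of the 5 GO terms per branch with the most members (horizontal axis, %), for the 45 members named in the GO table (upper bars) and the 5146 other identifiers of that table (lower bars). Microtubule held 28.9% of the members and 2.60% of the others, and nucleus 24.4% and 42.3%.

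The 47 member symbols found in the reference under the same symbol, which leaves out FCGR1B, were all protein-coding genes and lay on 20 chromosomes, with 6 on chromosome 12 and 5 on chromosome 1. Their median gene length, introns included, was 25.6 kb, against 35.5 kb for the other listed protein-coding genes and 20.1 kb for those not listed. The lengths ran from 2.42 kb (TUBB4B) to 370 kb (DYNC2H1).

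By role, tubulins had the shortest genes among roles with more than 1 gene (median 5.03 kb) and vesicle fusion and sorting the longest (median 59.7 kb). Members in the family table and members outside it had medians of 25.6 kb and 25.2 kb. The family table thus held long genes such as DYNC2H1 and DYNC1H1 (91.9 kb) beside the 3.88 kb of TUBB2A.

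**Figure D5:**
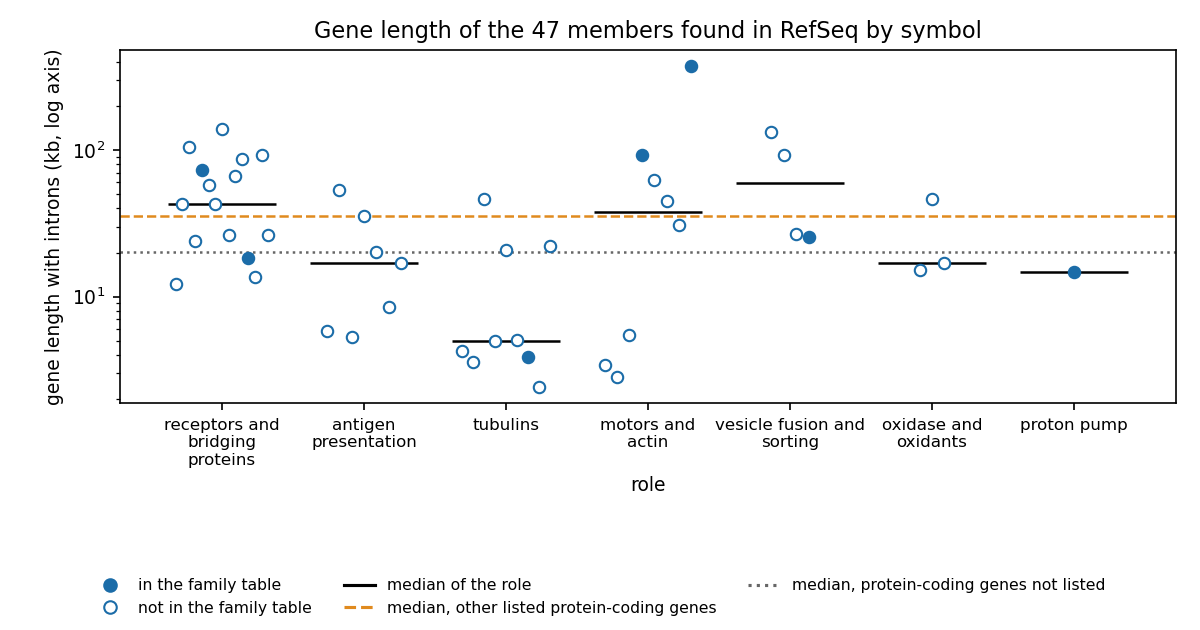
Gene length with introns (kb, log axis) of the 47 members found in the reference under the same symbol, by role, 1 point per gene. Filled points are genes of the family table, black lines the median of each role, and the dashed and dotted lines the medians of other listed (35.5 kb) and not listed (20.1 kb) protein-coding genes.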

How the data were processed

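RNA immunoprecipitation and sequencing gave 1 ALKBH5 IP and 1 input library, and 3 tables of the whole series were used. Per the submitters' processing notes the genome build was hg38; the sources used here do not give the aligner, the peak caller, the enrichment tool or what the IgG control was used for. Per the labels' protocols the libraries were stranded mRNA libraries, but whether peaks were assigned by strand was not given. Per the file headers, the GO and KEGG tables hold the authors' counts of input entries and background genes, a rich factor (a ratio, or fold), a p-value and a corrected p-value per term, and the entries as identifier and symbol; the family table holds text only. None gives a value per library, so there was no replicate check and no test was run.

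Entries were counted by symbol and by identifier in Python 3.11.15. Shares carry exact Clopper-Pearson 95% intervals (SciPy 1.17.1), which were checked on made-up entries. Symbols were matched to RefSeq genes of GRCh38.p14 by symbol, then by older symbols and synonyms; 373 of 5851 had no match. Members were named, except where a result is not reported here, and for GO terms the 5 per branch with the most members. Members and gene lists were chosen with earlier results of these data known.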

Additional observations from a re-analysis of the deposited data

How the results depend on the processing

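Keeping the Endocytosis entries gave 66 symbols on 56 identifiers in place of 57 on 47, and the whole Phagosome row 81 on 70; leaving Endocytosis out by identifier changed neither count. With Endocytosis kept, the antigen presentation role had 13 members in place of 7. Counted by symbol, mitotic cell cycle held 14 members in place of 9 identifiers, through symbols that share a tubulin or dynein identifier. The share of members in the family table was 13.5% for identifiers carried by 1 symbol, 14.9% for protein-coding symbols and 9.88% for the whole row. The share of the phagosome list that was listed stayed at 40.3% by symbol or identifier in the GO or KEGG table, was 39.5% without the Phagosome row and 46.2% with the genes that the rule leaves out. Of the 41 alternatives, 39 stayed within 1.5 times the count or within the interval of the share. The whole row, the full list, the role counts and the count of GO members by symbol were chosen after seeing the data. Depth is unknown, so an unlisted gene may have had too few reads for a peak.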

Other observations

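Identifiers that belong to another gene were not limited to the phagosome entries. Of the 5079 GO and KEGG symbols found in the reference by symbol, 119 carried the identifier of a different gene, and 535 symbols were not found there by symbol. Among the members the same counts were 1 of 47 (ACTB) and 10.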
